A study of Homo sapiens with 31 samples.

Results

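The BCL2 family genes were described here through 10 members in NALM-6 cells: the pro-survival genes BCL2, MCL1 and BCL2L1, the effectors BAX and BAK1, and the BH3-only genes BID, BAD, BBC3, BCL2L11 and PMAIP1. The members were the rows of the count table whose Ensembl identifier carries one of these 10 symbols, out of 30667 genes in the table, and all 10 were found and passed the filter on low counts. NALM-6 is a human B-cell precursor acute lymphoblastic leukemia line. Its cells were transduced with 1 of 4 lentiviral constructs and 31 bulk libraries were made by prime-seq, which counts unique molecular identifiers (UMIs), each standing for 1 captured RNA molecule.

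Each construct carried a short hairpin RNA in a miR30 cassette behind dsRED, either a control hairpin (sh-CTRL) or a hairpin against XIAP (sh-XIAP), an inhibitor of caspases. The hairpin was driven by the moderate EF1a promoter or the strong SFFV promoter. EF1a/sh-XIAP against EF1a/sh-CTRL is called moderate KD (knockdown), and SFFV/sh-XIAP against SFFV/sh-CTRL strong KD. Control cells were marked with mTagBFP and sh-XIAP cells with eGFP, so hairpin and marker cannot be told apart, and all groups shared the lentiviral backbone. At days 4, 10 and 13 after transduction the groups held 3, 3 and 3 libraries with EF1a/sh-CTRL, 2, 2 and 3 with EF1a/sh-XIAP, 3, 2 and 2 with SFFV/sh-CTRL, and 2, 3 and 3 with SFFV/sh-XIAP. The study states that it left out samples that were outliers in a principal component analysis. The labels do not say whether the uneven group sizes come from this, and such a choice could narrow the spread between libraries. The labels give all libraries as cells followed in vitro, while the design text of the series speaks of cells taken from mouse bone marrow. Nothing in the labels says that replicates were separate cultures, so the p-values measure only the spread between these libraries, which may be technical.

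The BCL2 family decides whether the outer membrane of the mitochondrion is opened. BAX and BAK1 are the effectors that form the openings through which cytochrome c leaves to activate caspases, and the pro-survival proteins hold them, and the BH3-only proteins, in a groove on their surface. BH3-only proteins are the sensors of stress: their short BH3 helix fills that groove or activates the effectors directly. XIAP acts further down, on the caspases that cytochrome c sets off. In B-lineage leukemia the pro-survival members are known as drug targets, and much of the control of the family lies in protein stability, modification and binding, which RNA counts do not show.

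The part that all these proteins share is the BH3 motif, whose core is a leucine followed, after 3 other residues, by a small residue and an aspartate. The 30 coding bases around this core are shown for each member, because this is the stretch by which the pro-survival members and their antagonists recognise each other. Capitals mark the leucine codon and the codons of the small residue and the aspartate. The sequences were read 5′ to 3′ on the coding strand from GENCODE 29 on GRCh38.
BCL2: accCTCcgccaggccGGCGACgacttctcc (chr18:63318352-63318381, minus strand, coding, exon 2 of 3)
MCL1: accTTAcgacgggttGGGGATggcgtgcag (chr1:150578868-150578897, minus strand, coding, exon 1 of 3)
BCL2L1: gcgCTGagggaggcaGGCGACgagtttgaa (chr20:31721925-31721954, minus strand, coding, exon 2 of 3)
BAX: tgtCTCaagcgcatcGGGGACgaactggac (chr19:48955784-48955813, plus strand, coding, exon 3 of 6)
BAK1: cagCTCgccatcatcGGGGACgacatcaac (chr6:33575390-33575419, minus strand, coding, exon 4 of 6)
BID: cacCTCgcccaggtcGGGGACagcatggac (chr22:17739418-17739447, minus strand, coding, exon 4 of 6)
BAD: gagCTCcggaggatgAGTGACgagtttgtg (chr11:64271625-64271654, minus strand, coding, exon 3 of 4)
BBC3: cagCTGcggcggatgGCGGACgacctcaac (chr19:47226582-47226611, minus strand, coding, exon 3 of 4)
BCL2L11: gagTTGcggcgtattGGAGACgagtttaac (chr2:111150100-111150129, plus strand, coding, exon 4 of 5)
PMAIP1: caaCTCaggagatttGGAGACaaactgaac (chr18:59902670-59902699, plus strand, coding, exon 2 of 2)

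The small residue was encoded as glycine in all of them except BAD, where the codon gives serine, and BBC3, where it gives alanine. BID held a second match to the core with serine, outside the stretch shown. The core is short: 35% of 19512 annotated proteins hold a match somewhere in their length, and 13.8% hold one with glycine, so a match describes the members and does not define them.

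The targeted gene was counted too rarely to check the labels. XIAP had 2 to 14 UMIs in a library, and at days 10 and 13 it stood at 10.2 ± 4.72 CPM, counts per 1000000 UMIs, in the 4 SFFV/sh-CTRL libraries (mean ± SD) and at 8.86 ± 3.06 CPM in the 6 SFFV/sh-XIAP libraries. Its log2 fold change was -0.26 in strong KD (95% interval -1.06 to 0.53) and -0.17 in moderate KD (-0.91 to 0.57), so a decrease of RNA was not detectable at this depth. Total UMIs ran from 312852 to 1153668 per library, with a median of 603822. The smallest totals belonged to 1 library each of SFFV/sh-XIAP (312852) and EF1a/sh-XIAP (315055) at day 10, and the latter stood apart from the other 20 libraries of days 10 and 13 on the first principal component of all tested genes. All 10 of the markers for precursor B cells that were looked for were found, with a summed level of 4666 to 5384 CPM. The markers of T cells summed to 2.07 to 22.8 CPM, those of myeloid cells to at most 25.6 CPM and those of erythroid cells to at most 5.29 CPM.

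PMAIP1 and MCL1, partners in the cell, were the most counted members, and their levels led the family in every group. PMAIP1 encodes NOXA, a BH3-only protein that binds MCL1 above all and drives its degradation. Its level was 162.6 ± 19.5 CPM over the 31 libraries (SD), against 147.2 ± 18.4 CPM for MCL1, and PMAIP1 was above MCL1 in 24 of 31 libraries (ratio of means 1.11). BID, which links death receptors to mitochondria once caspase-8 has cut it, followed with 101.6 ± 14.1 CPM. BCL2 itself, the pro-survival gene that gave the family its name, had 71.3 ± 10.53 CPM. Among the genes tested these 4 levels lay at the 94.2, 93.3, 89.4 and 83.9 percentiles.

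**Figure D1:**
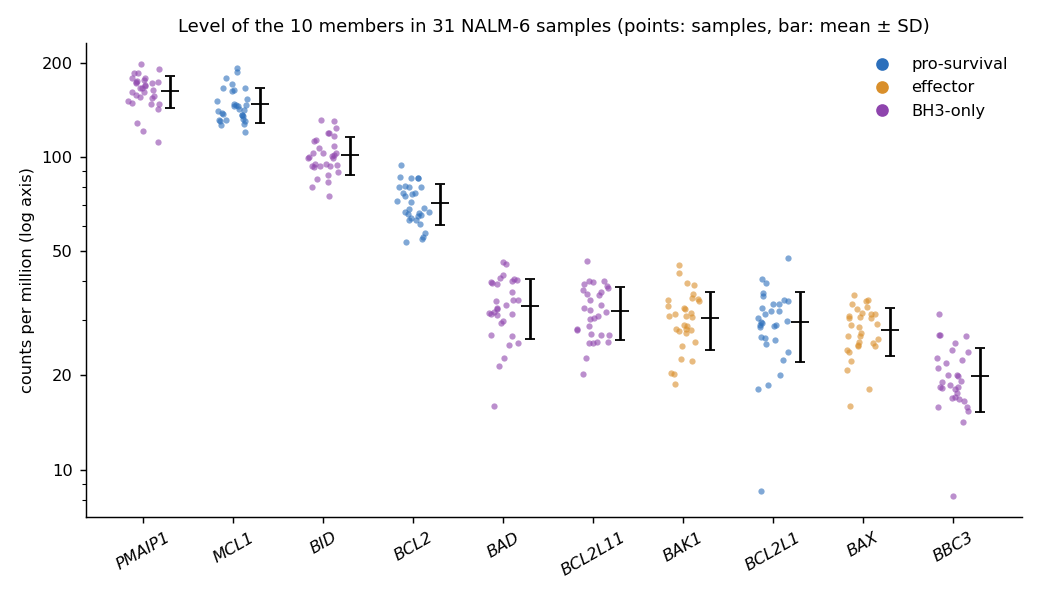
Level of each member in CPM (log axis) in the 31 libraries, with points for libraries, colors for the class of the member and black bars for mean ± SD. PMAIP1, MCL1, BID and BCL2 stand above the other 6 members, which lie between 19.9 and 33.4 CPM on average.

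The remaining members formed a lower tier. BAD, a sensor of growth factor signals, had 33.4 ± 7.17 CPM, BCL2L11 (BIM), the BH3-only protein known for its part in lymphocyte death, 32.2 ± 6.19 CPM, and BAK1 30.6 ± 6.38 CPM. BCL2L1, whose main product is BCL-XL, had 29.6 ± 7.50 CPM, and BAX 28.0 ± 4.90 CPM. BBC3 (PUMA), a target of p53, was the least counted member with 19.9 ± 4.63 CPM, or 4 to 31 UMIs per library. Since 1 molecule gives 1 UMI at its 3′ end, these levels need no correction for transcript length, but capture can differ between genes.

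The order of the levels was tested between neighbours with a two-sided permutation test that swapped the neighbours within libraries on log2 CPM (100000 resamples) and Benjamini-Hochberg adjustment over the 9 neighbours. The neighbours were picked by their mean level in the same 31 libraries. The p-values thus describe how steady the order was over these libraries and are no independent test of it. PMAIP1 and MCL1 differed (permutation p = 0.0043, adjusted 0.00774). MCL1 was above BID in 31 of 31 libraries, BID above BCL2 in 29, BCL2 above BAD in 31 and BAX above BBC3 in 26, each with a permutation p = 1e-05, the smallest value these resamples can give (adjusted 2.25e-05). The neighbours from BAD down to BAX did not differ beyond their spread (permutation p = 0.25 to 0.57), with ratios of means between 1.04 and 1.06. The 4 most counted members were the same 4 in 12 of 12 groups of construct and day, and BID was always in rank 3 and BCL2 always in rank 4.

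Added up, the 10 members gave 13625 UMIs, and the BH3-only genes held the larger part of them. The classes differ in size, with 5 BH3-only genes, 3 pro-survival genes and 2 effectors, so their shares are not levels per gene. Pro-survival genes took 37.8% of the family's UMIs, effectors 9.05% and BH3-only genes 53.15%. PMAIP1 alone took 24.65% and MCL1 22.4%, BID 15.4% and BCL2 10.9%. With PMAIP1 left out, the mean pro-survival share at days 10 and 13 was 51.29% with SFFV/sh-XIAP and 51.23% with SFFV/sh-CTRL. It was 49.09% with EF1a/sh-XIAP and 48.69% with EF1a/sh-CTRL, so the larger part of the BH3-only genes rested on this gene. Across single libraries the pro-survival share ran from 32.9% to 44.4%, the effector share from 6.80% to 11.6% and the BH3-only share from 44.8% to 58.2%. The summed level of the family was 656.3 ± 41.5 CPM (n = 31), with the lowest library at 534.3 and the highest at 734.5.

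**Figure D2:**
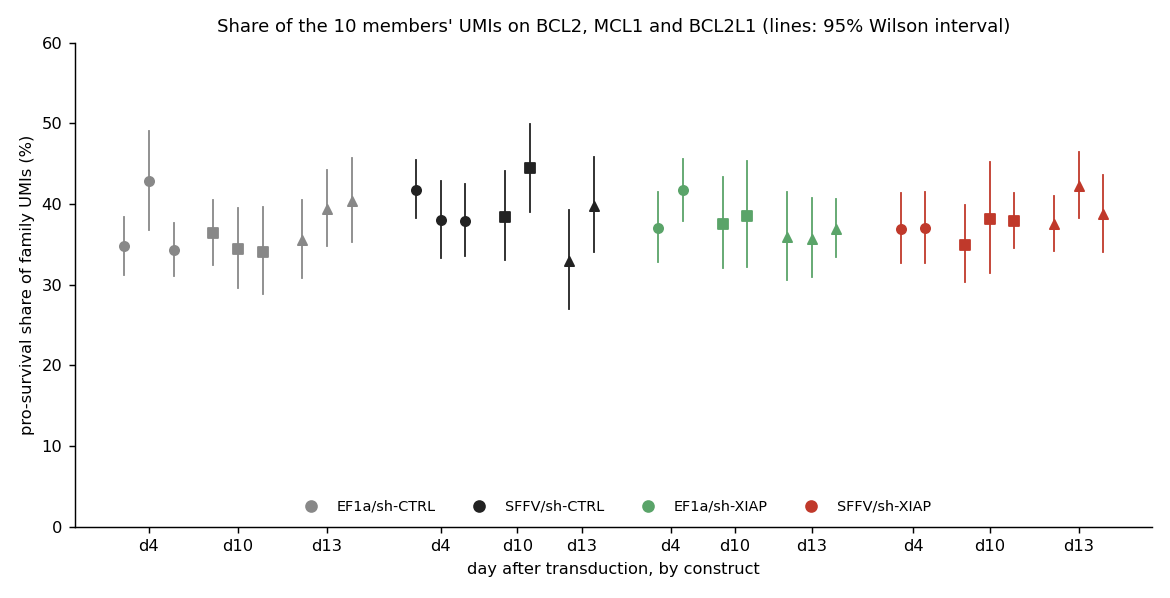
Percent of the 10 members' UMIs that fell on BCL2, MCL1 and BCL2L1 in each library, grouped by construct (colors) and day (d4, d10, d13), with lines for the 95% Wilson interval of counting error. The shares lie between 32.9% and 44.4%, and the libraries of the 4 constructs overlap.

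The balance of pro-survival and pro-death members did not separate the constructs. At days 10 and 13 the pro-survival share was 36.7 ± 2.66% with EF1a/sh-CTRL (SD, n = 6), 36.9 ± 1.18% with EF1a/sh-XIAP (n = 5), 38.9 ± 4.76% with SFFV/sh-CTRL (n = 4) and 38.3 ± 2.36% with SFFV/sh-XIAP (n = 6). Strong KD thus differed from its control by -0.63 percentage points, against a pooled SD of 3.76, and moderate KD by 0.23 points against 2.06. Neither direction was stable: strong KD came to 1.22 points without SFFV/sh-CTRL day 10 replicate 2 and to -2.63 without SFFV/sh-CTRL day 13 replicate 1, and moderate KD to -1.96 with counts thinned to the smallest total. The widest range, 32.9% to 44.4%, was that of SFFV/sh-CTRL, and it enclosed every library of SFFV/sh-XIAP. By day the share was 38.2 ± 2.95% at day 4 (n = 10), 37.5 ± 2.99% at day 10 (n = 10) and 37.7 ± 2.69% at day 13 (n = 11). The share is a description and was not tested.

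The ratio of MCL1 to PMAIP1, a pro-survival protein and its dedicated antagonist, was 0.92 ± 0.17 over all libraries (SD, n = 31). It was 0.907 ± 0.178 with SFFV/sh-XIAP and 1.004 ± 0.258 with SFFV/sh-CTRL at days 10 and 13. The range was 0.690 to 1.22 in the first and 0.716 to 1.27 in the second, so these groups overlapped almost fully. The ratio of BCL2 to BCL2L11, another pair that binds tightly, was 2.31 ± 0.63 over all libraries. It lay at 2.97 ± 0.57 with SFFV/sh-CTRL, 2.35 ± 0.41 with SFFV/sh-XIAP, 2.26 ± 0.52 with EF1a/sh-XIAP and 2.01 ± 0.88 with EF1a/sh-CTRL at days 10 and 13. The highest library of EF1a/sh-CTRL, at 3.71, came close to the highest of SFFV/sh-CTRL, at 3.78. It was day 13 replicate 3, which stood far above its group in BCL2. The next highest library of EF1a/sh-CTRL, at 2.17, lay below the lowest of SFFV/sh-CTRL, at 2.44. The effectors were near parity, with a BAX to BAK1 ratio of 0.95 ± 0.28.

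**Figure D3:**
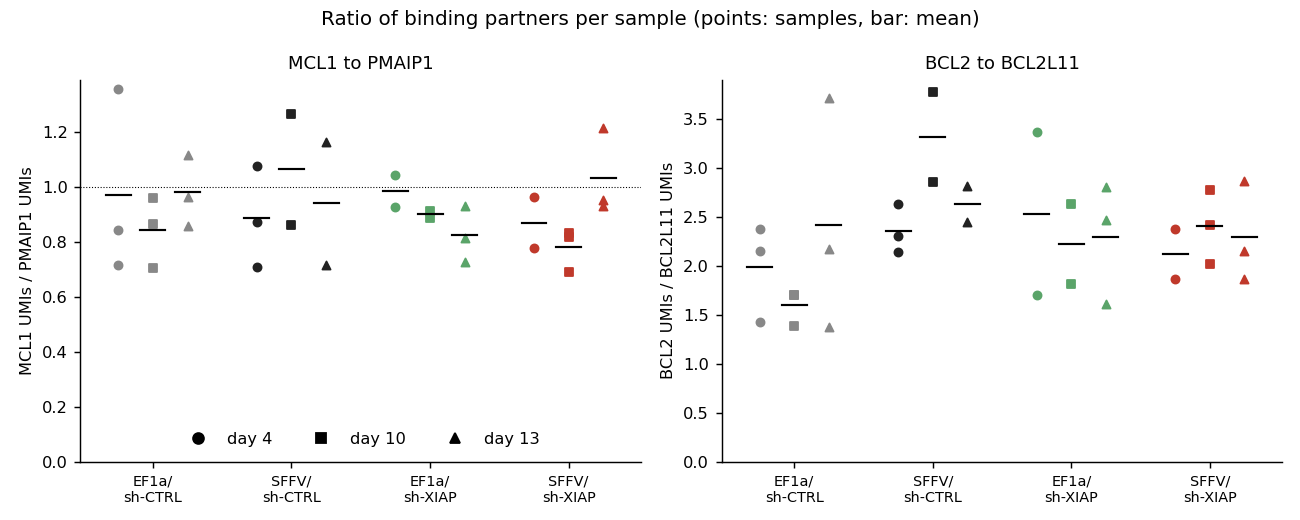
Ratio of UMIs of MCL1 to PMAIP1 (left) and of BCL2 to BCL2L11 (right) in each library, by construct (horizontal axis, colors) and day (symbols), with a bar at each group's mean and a dotted line at equal counts on the left. The MCL1 to PMAIP1 ratios run from 0.690 to 1.36 and scatter around 0.92 in all constructs.

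Strong KD at days 10 and 13 addresses whether the family answers a strong hairpin against XIAP. No member passed the adjusted p of at most 0.25, which 0.0792% of the 17683 genes tested passed (14 genes). BCL2L11 and PMAIP1 had the smallest p-values, BCL2L1 a large but uncertain difference, and MCL1 and BCL2 lay close to no difference. BCL2L11 measured 20.3 and 26.9 CPM at day 10 and 25.6 and 22.7 CPM at day 13 with SFFV/sh-CTRL. With SFFV/sh-XIAP it measured 30.99, 28.8 and 40.1 CPM at day 10 and 32.0, 28.0 and 36.5 CPM at day 13. All 6 strong KD libraries were above all 4 control libraries, which held for this 1 of the 10 members and for 0.735% of the 17683 genes tested (130 genes). The log2 fold change of BCL2L11 was 0.45 (SE 0.23, 95% interval -0.02 to 0.92), with an adjusted p of 0.895 by limma-voom.

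An exact permutation test of the same log2 CPM values within days, two-sided, gave p = 0.02 for BCL2L11, where 0.01 is the smallest p the 100 arrangements allow. It was one of 80 such tests, 10 members in 8 comparisons, of which 3 had p below 0.05. The tests at day 4 could not reach that, since their smallest possible p is 0.1. The 3 were BCL2L11 in strong KD, BCL2L11 between the promoters and BAK1 from day 10 to day 13. The tests share libraries and their p-values were not adjusted. The count of 3 can thus not be read against what chance gives, and no member is called from it. At days 10 and 13 BCL2L11 stood at 23.9 CPM on average with SFFV/sh-CTRL, which held 43 UMIs of it in 4 libraries. The mean was 32.7 CPM with SFFV/sh-XIAP, 31.1 with EF1a/sh-XIAP and 35.1 with EF1a/sh-CTRL. Whether the control or the strong KD libraries moved was not tested. Set against both control constructs, the log2 fold change of BCL2L11 in strong KD was 0.19 (adjusted p = 0.927), and with the total of UMIs as a covariate it was 0.23 (adjusted p = 0.972).

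PMAIP1 was measured at 164.3 and 128.8 CPM at day 10 and 190.8 and 111.4 CPM at day 13 with SFFV/sh-CTRL. With SFFV/sh-XIAP it was at 165.9, 185.4 and 174.1 CPM at day 10 and at 179.5, 147.4 and 161.7 CPM at day 13. The control libraries spanned the whole range of the strong KD libraries. The log2 fold change was 0.23 (SE 0.12, 95% interval -0.01 to 0.47, adjusted p = 0.895 by limma-voom). Without the control library at 190.8 CPM it was 0.38 (adjusted p = 0.800).

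BCL2L1 was the least counted pro-survival gene. It measured 36.0 and 28.8 CPM at day 10 but 8.55 and 18.6 CPM at day 13 with SFFV/sh-CTRL, the lowest of these resting on 3 UMIs. With SFFV/sh-XIAP it measured 23.7, 22.4 and 34.0 CPM at day 10 and 26.3, 39.4 and 28.5 CPM at day 13. The strong KD libraries were thus above the control at day 13 and not at day 10. The log2 fold change was 0.36 for both days together (95% interval -0.17 to 0.89), -0.15 at day 10 alone and 1.08 at day 13 alone (adjusted p = 0.939, 0.990 and 0.837 by limma-voom).

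MCL1, on which many B-lineage cells depend, had a log2 fold change of 0.08 in strong KD (95% interval -0.14 to 0.31), which is 1.06-fold with an interval from 0.907-fold to 1.24-fold. BCL2 had 0.07 (-0.23 to 0.37). The effectors lay on either side of no difference, with BAX at -0.15 (-0.59 to 0.29) and BAK1 at 0.09 (-0.36 to 0.55). The other BH3-only genes were BID at 0.15 (-0.13 to 0.43), BAD at 0.13 (-0.34 to 0.61) and BBC3 at 0.22 (-0.36 to 0.80). Every one of the 10 intervals lay within a 2-fold change in either direction.

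**Figure D4:**
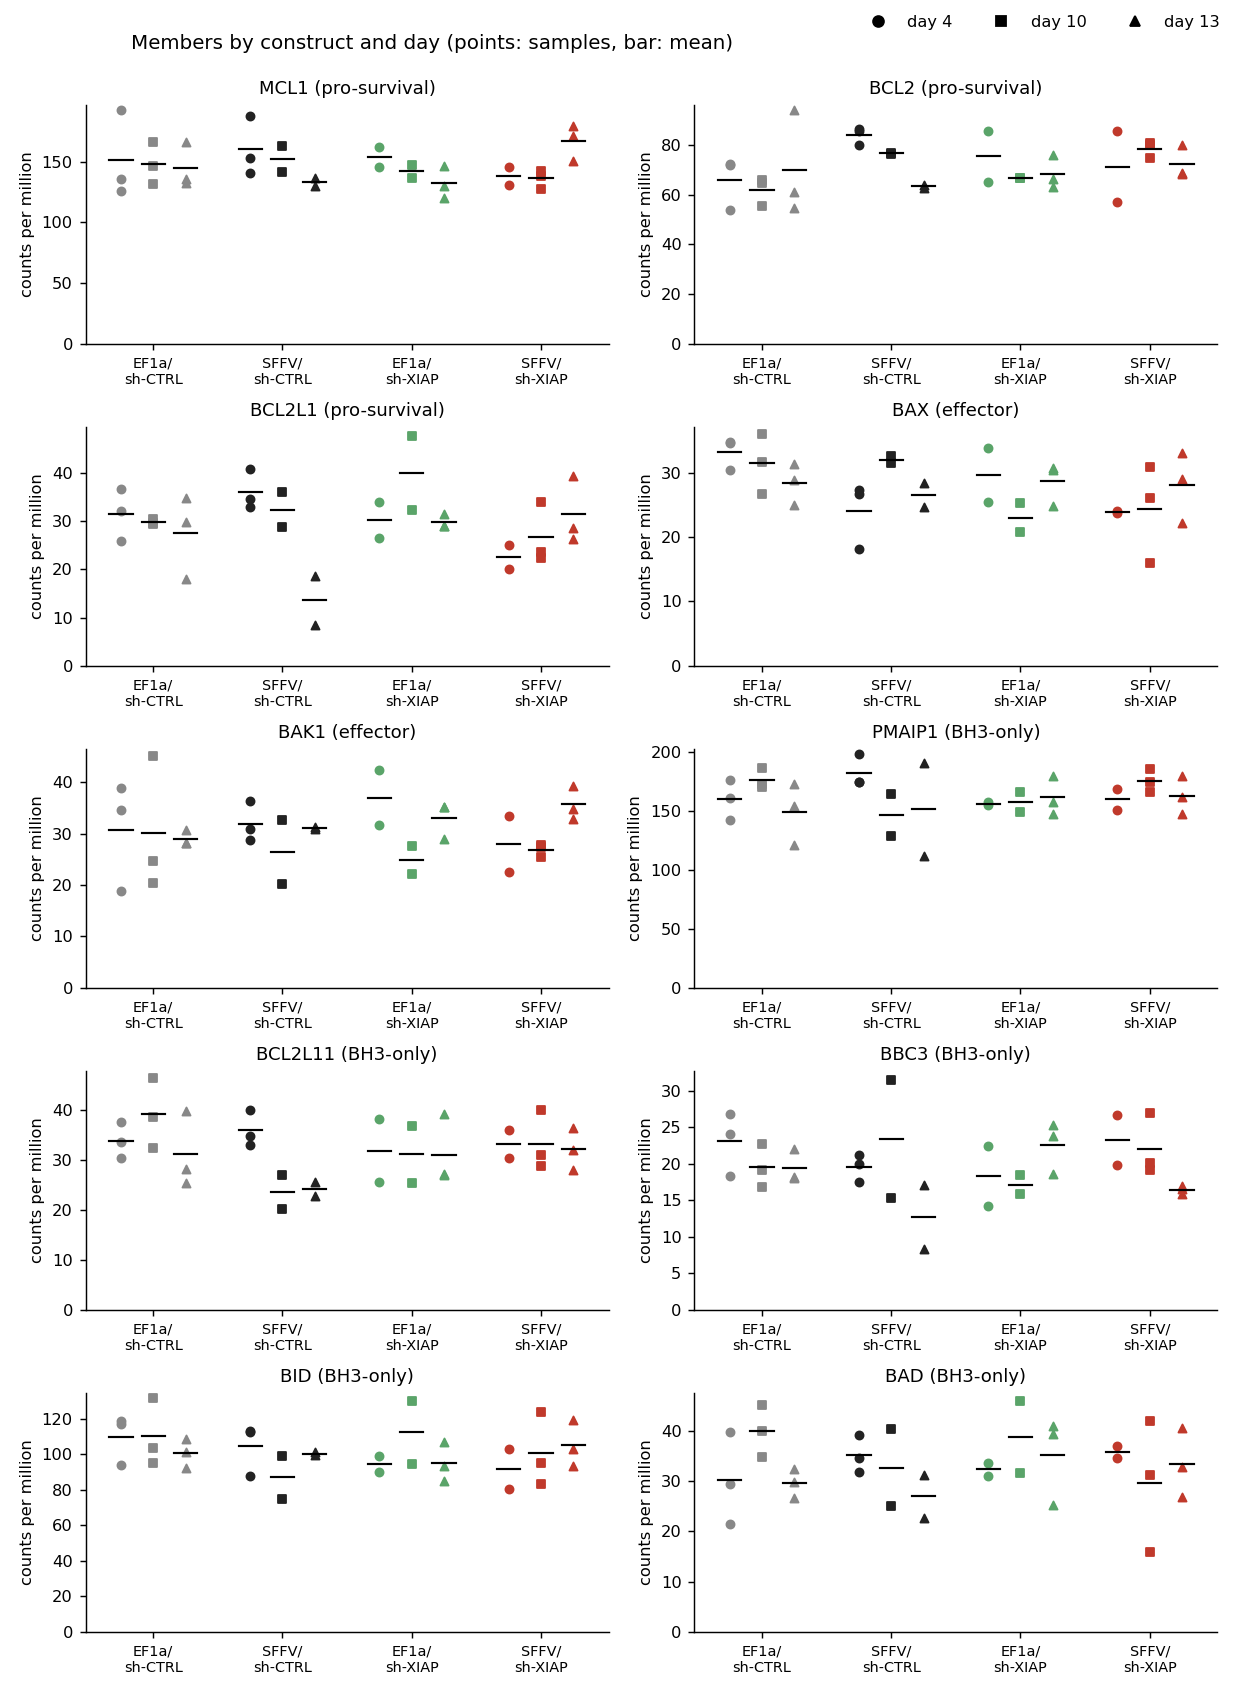
CPM of each member in the 31 libraries (1 panel per gene, each axis from 0) by construct (horizontal axis, colors) and day (symbols), with a bar at the mean of each group. BCL2L11 in the late SFFV/sh-CTRL libraries lies between 20.3 and 26.9 CPM, below the 28.0 to 40.1 CPM of the late SFFV/sh-XIAP libraries.

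None of the 10 members had an unadjusted p under 0.05 in strong KD at days 10 and 13 with limma-voom, edgeR or DESeq2, and 0 were called by any of the 3 tools. By class, 3 of 3 pro-survival genes, 1 of 2 effectors and 5 of 5 BH3-only genes had a fold change above 0, with medians of 0.08, -0.03 and 0.22 on the log2 scale, and the median over all genes tested was -0.02. In simulated counts of this comparison, 2-fold changes were called in 88.1% of the 84 changed genes above 20 CPM and in 43% of all 200 changed genes. The spread in the simulation was fixed beforehand and not taken from these data. With 200 changed genes, against 14 called in the real counts, the adjusted threshold was also easier to pass. These shares may thus be too high for the members.

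In moderate KD at days 10 and 13 the members lay between -0.13 and 0.24 on the log2 scale. MCL1 had a log2 fold change of -0.11 (95% interval -0.32 to 0.10), PMAIP1 0.01 (-0.21 to 0.23) and BCL2L11 -0.07 (-0.48 to 0.33). The ends of the range were BCL2L1 at 0.24 (-0.20 to 0.67) and BAX at -0.13 (-0.55 to 0.29). The mean of BCL2L1 with EF1a/sh-XIAP, 33.9 ± 7.82 CPM (SD, n = 5), included a library at 47.6 CPM that is also 1 of the 2 shallowest. Of the 10 members, 0 were called (0.0170% of all genes tested were, 3 genes) and 0 had an unadjusted p under 0.05 by limma-voom, edgeR or DESeq2.

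The strong and the moderate KD effects were compared directly. BCL2L11 differed most, by 0.53 on the log2 scale (95% interval -0.10 to 1.15, adjusted p of at least 0.964 for all 10 members by limma-voom), followed by BID at 0.26, PMAIP1 at 0.22 and MCL1 at 0.19. BCL2 differed by 0.003, with an interval that still left a range of about 0.42 on either side. No member was called (0.00566% of all genes tested, 1 gene) and none had an unadjusted p under 0.05 by any of the 3 tools.

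The control constructs were also compared with each other. They differed in the promoter and in how strongly it drove the control hairpin and dsRED, and these cannot be told apart. BCL2L11 was the member that differed most between them: with EF1a/sh-CTRL it measured 46.5, 32.4 and 38.5 CPM at day 10 and 39.8, 28.2 and 25.3 CPM at day 13, a mean of 35.1 ± 7.91 CPM (SD, n = 6), against 23.9 ± 2.98 CPM (n = 4) with SFFV/sh-CTRL. The groups overlapped in the range between 25.3 and 26.9 CPM. The log2 fold change was -0.53 (SE 0.23, 95% interval -0.9998 to -0.05, adjusted p = 0.923 by limma-voom), and the exact permutation test, two-sided within days, gave p = 0.04. The strong KD comparison uses the same 4 SFFV/sh-CTRL libraries, so its value for BCL2L11 is not independent of this one.

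BCL2L1 lay at -0.30 (95% interval -0.84 to 0.23) and PMAIP1 at -0.17 (-0.42 to 0.07) between the promoters, while MCL1 was at -0.03 (-0.26 to 0.20) and BAX at -0.01 (-0.45 to 0.43). All 5 BH3-only genes were below 0, with a median of -0.19 beside 0.02 over all genes, but so were 9 of the 10 members. In strong KD 9 of 10 were above 0 against the same 4 SFFV/sh-CTRL libraries, so the signs in these comparisons are not independent. The summed level of the family was 608.5 ± 54.55 CPM in those libraries and 658.2 ± 37.48 CPM with EF1a/sh-CTRL (SD, n = 6). No member was called (0.00566% of all genes tested, 1 gene). BCL2L11 was the 1 member with an unadjusted p under 0.05, by limma-voom and by edgeR, and by DESeq2 there was none.

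At day 4 the same contrasts rest on 2 sh-XIAP and 3 control libraries each, and no member was called in strong KD (0.0109% of 18336 genes were, 2 genes) or in moderate KD (0.0491%, 9 genes). BCL2L1 in strong KD measured 20.04 and 25.2 CPM, and 33.0, 34.6 and 40.8 CPM in the controls, with no overlap. Its log2 fold change was -0.65 (SE 0.30, 95% interval -1.26 to -0.05, adjusted p = 0.979 by limma-voom), opposite in sign to its value at day 13. PMAIP1 measured 168.4 and 150.9 CPM in strong KD and 174.1, 174.6 and 197.9 CPM in the controls, also without overlap. Thus 2 of the 10 members had both strong KD libraries below all 3 controls, as had 9.49% of the 18336 genes tested (1741 genes). Its log2 fold change was -0.19 (-0.44 to 0.06), again opposite in sign to its late value, and the change between the days was not tested. For both genes the exact permutation test gave p = 0.1, the smallest that 2 against 3 libraries allow.

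MCL1 was at -0.24 (-0.54 to 0.06) and BCL2 at -0.27 (-0.66 to 0.11) in strong KD at day 4. All 3 pro-survival genes were thus below 0, with a median of -0.27 beside -0.004 over all genes. This sign was not particular to the class, since 8 of the 10 members were below 0 against the same 3 control libraries. BCL2L1 in strong KD was the 1 member with an unadjusted p under 0.05 at day 4, by limma-voom and edgeR but not by DESeq2. In moderate KD none was, and the values ran from -0.27 for BBC3 to 0.17 for MCL1. With 2 libraries in an arm, a fall of BCL2L1 to 0.418-fold lay within the interval.

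**Figure D5:**
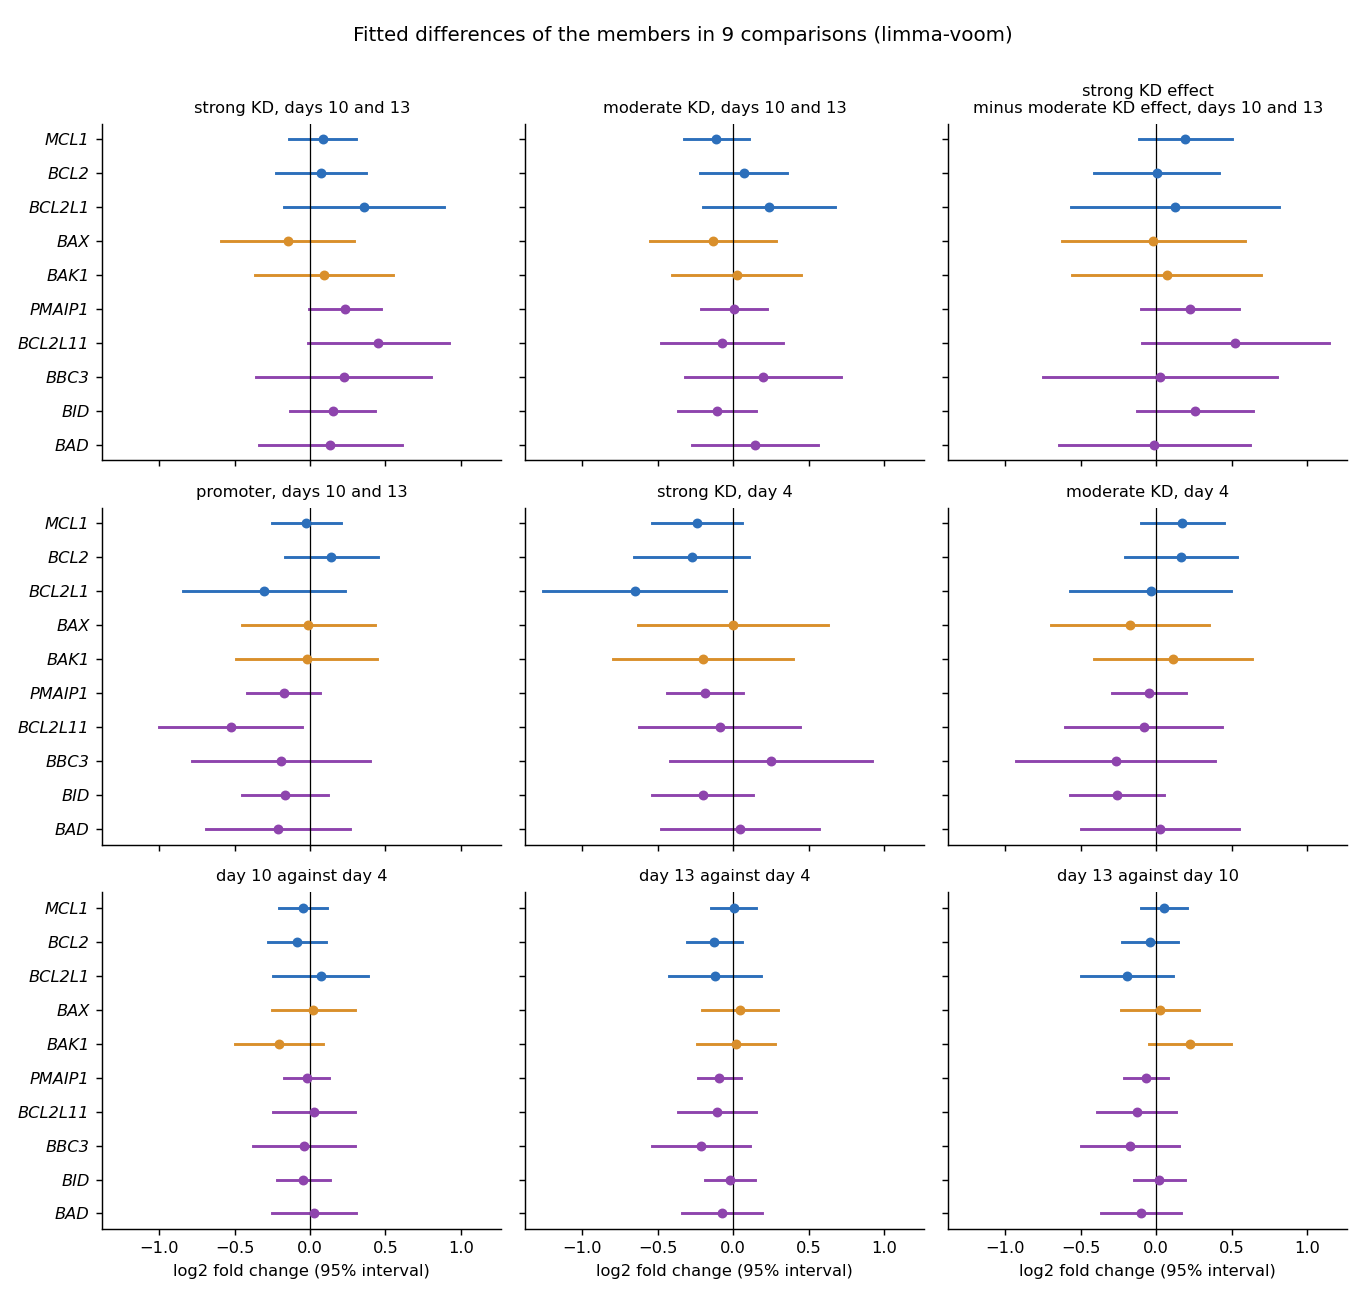
Log2 fold change (points) and its 95% interval (lines) for the 10 members in the 9 comparisons, from limma-voom, with colors for pro-survival (blue), effector (orange) and BH3-only (purple) genes. The intervals are narrowest for PMAIP1 and MCL1 and widest for BBC3, and the intervals that do not reach 0 are those of BCL2L11 between promoters and of BCL2L1 in strong KD at day 4.

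Averaged over the constructs, the members kept their levels within narrow bounds over time, and days were not tested within single constructs. The family's summed level fell from 713.9 CPM at day 4 (n = 3) to 583.3 at day 13 (n = 2) with SFFV/sh-CTRL. It rose from 627.8 (n = 2) to 684.7 CPM (n = 3) with SFFV/sh-XIAP. With EF1a/sh-CTRL it went from 670.3 to 629.9 CPM and with EF1a/sh-XIAP from 659.5 to 637.9 CPM. Single members could move further: BCL2L1 went from 36.1 to 13.56 CPM with SFFV/sh-CTRL, the latter on 12 UMIs in 2 libraries. Its mean went from 22.6 to 31.42 CPM with SFFV/sh-XIAP, from 31.6 to 27.55 with EF1a/sh-CTRL and from 30.24 to 29.82 with EF1a/sh-XIAP. From day 4 to day 13, over all constructs, MCL1 changed by 0.003 on the log2 scale (95% interval -0.15 to 0.15), or from 0.904-fold to 1.11-fold, and PMAIP1 by -0.09 (-0.23 to 0.05). BID was at -0.02 (-0.19 to 0.14) and BCL2 at -0.12 (-0.31 to 0.06). The lowest value was that of BBC3, -0.21 (-0.54 to 0.11), whose mean was 21.1 ± 4.05 CPM at day 4 (SD, n = 10) and 18.3 ± 4.55 CPM at day 13 (n = 11). All 10 intervals of these averages over the constructs lay within a 2-fold change. In simulated counts of this comparison, 97.7% of the 86 changed genes above 20 CPM were called at a 2-fold change. Here too 200 genes were changed at a fixed spread, against 91 called in the real counts, so this share may be too high. Day and any batch of collection cannot be told apart.

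No member was called from day 4 to day 13 (0.515% of 17676 genes, 91 genes), from day 4 to day 10 (0.260%, 46 genes) or from day 10 to day 13 (0.0226%, 4 genes). None had an unadjusted p under 0.05 in these comparisons by limma-voom, edgeR or DESeq2. BAK1 moved most between the later days, with a mean of 27.4 ± 7.31 CPM at day 10 (SD, n = 10) and 32.4 ± 3.54 CPM at day 13 (n = 11), and the ranges overlapped. Its log2 fold change from day 10 to day 13 was 0.22 (95% interval -0.05 to 0.50, adjusted p = 0.845 by limma-voom), while the exact permutation test, two-sided within constructs, gave p = 0.0224.

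Within groups, the chi-square per degree of freedom (19 degrees) was 0.423 for BAX, the lowest, and 1.40 for MCL1, the highest, with 1.38 for PMAIP1 and 1.25 for BID. A value of 1 is what counting alone would give. Over 6852 genes counted as often as the members the median was 1.05, and 90% lay between 0.589 and 1.75. BAX and BBC3 (0.573) lay below that range and the other 8 members within it.

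Correlations between members are given as a description. Over 45 pairs of members and 31 libraries, Pearson's r of log2 CPM ran from -0.33 for BAK1 and BBC3 to 0.46 for BBC3 and PMAIP1, with a median of 0.06. The genes whose pattern was most like that of PMAIP1 were CDC6 (r = 0.58), PAK1IP1 (0.57) and TM9SF2 (0.57). For MCL1 they were TMA7B (0.61), PAK2 (0.54) and RPS27 (0.54). These are the top values among 3590 genes over 31 libraries that share construct, day and depth.

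BAD needs a limit: its gene overlaps GPR137 on the opposite strand, which had 437 UMIs to the 696 of BAD, and the strand of counting is not given in the sources used here, so reads of the pair may have been mixed. The other overlapping genes had at most 23 UMIs each.

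The genes around the 10 members behaved much as they did. Of 16 other genes of the wider BCL2 family, 15 were in the table and 11 passed the low count filter. None was called in strong KD or moderate KD at any time by limma-voom, edgeR or DESeq2, and at most 2 had an unadjusted p under 0.05 in a comparison. The 1 call was BNIP3, a mitochondrial BH3-like protein that acts in mitophagy, from day 4 to day 13. Its level was 113.1 ± 10.4 CPM at day 4 (SD, n = 10), 115.7 ± 17.9 at day 10 (n = 10) and 130.4 ± 10.9 at day 13 (n = 11), and the ranges at days 4 and 13, 100.2 to 135.3 and 108.8 to 146.0 CPM, overlapped. It rose by 0.25 on the log2 scale (SE 0.07, adjusted p = 0.214 by limma-voom). The call was lost with a covariate for total UMIs and in each of the sh-CTRL and sh-XIAP constructs alone, and kept in 17 of 31 fits with 1 library left out.

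Of 17 genes for the release of cytochrome c and the apoptosome, which act just below the family, none was called in any of the 9 comparisons by limma-voom, edgeR or DESeq2, and at most 2 had an unadjusted p under 0.05 in a comparison. Of 30 regulators of the family, 28 or 29 were tested, and the 1 gene called was TPT1, an abundant protein known to stabilise MCL1. It fell by 0.07 on the log2 scale from day 4 to day 10 (adjusted p = 0.000626) and by 0.04 to day 13 (adjusted p = 0.137), by limma-voom. Its level was 3289 ± 69.7 CPM at day 4, 3165 ± 107 at day 10 and 3219 ± 117 at day 13 (SD, n = 10, 10 and 11), and the libraries overlapped. Neither call was made by edgeR or DESeq2, or in the sh-CTRL constructs alone. The regulators as a list had a median log2 fold change of -0.05 in strong KD at days 10 and 13, beside -0.02 over all genes tested. Beside these changes with day, the precursor B cell marker IGLL1 rose by 0.12 to day 10 (adjusted p = 0.0525) and 0.14 to day 13 (adjusted p = 0.00177) on the log2 scale by limma-voom, and its part in the result was not tested. Both IGLL1 calls were lost with edgeR and in the sh-XIAP constructs alone, and that of day 10 also without EF1a/sh-CTRL day 10 replicate 1.

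In bulk RNA, fewer cells that express a gene and less RNA per cell cannot be told apart. Depth was uneven between the groups of days 10 and 13. The median total was 464457 UMIs in SFFV/sh-CTRL and 708866.5 in SFFV/sh-XIAP, and 578418.5 in EF1a/sh-CTRL and 482464 in EF1a/sh-XIAP. The 2 shallowest sh-XIAP libraries bear on both KD comparisons. Without them BCL2L11 in strong KD was at 0.49 (adjusted p = 0.782) and PMAIP1 at 0.23 (adjusted p = 0.819), and no member was called by limma-voom.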

How the data were processed

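The values are UMI counts from prime-seq of 31 NALM-6 samples, deposited by the authors as whole numbers per Ensembl gene with no normalization. Per the submitters' processing notes STAR 2.6.0a and the builds hg38 (GRCh38) and mm10 (GRCm38) were named, with no role given, and the counting program and annotation were not given in the sources used here. A UMI counts a molecule once, so amplification adds little, and intervals on counts cover counting error only. Construct, day and replicate came from the sample labels. The members and gene lists were chosen with earlier results of these data known.

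Gene symbols were taken from GENCODE 29 (GRCh38). Genes that exceeded 1 CPM in no fewer than 1/3 of the fitted samples were scaled by TMM and fitted with limma-voom (limma 3.58.1, edgeR 4.0.16, R 4.3.3), with construct and day as terms at days 10 and 13 (21 samples) and over all days (31), and construct alone at day 4 (10). Calls used Benjamini-Hochberg adjusted p of at most 0.25 over all genes tested, as in the study. CPM per sample was taken on total UMIs, and log2 CPM for permutation tests used TMM and a prior count of 2. Exact permutation tests kept samples within their day, or within their construct for comparisons of days and ran over all arrangements.

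Named were all 10 members, XIAP and the genes of 3 further lists past the threshold, at most 3 per list and comparison. The marker lists served to check the cell line. Alternatives were edgeR's quasi-likelihood test, DESeq2 1.42.0 and its size factors, no low count filter, a stricter threshold of 0.05, a replicate block, a depth covariate, other sets of samples and leaving out each sample. Simulated counts in which 200 genes were changed 2-fold, with a spread fixed beforehand, were used to test the fits. Residuals of samples that share a number across groups correlated by -0.000553 on average (149 pairs), and those of samples with other numbers by 0.000302 (290 pairs), so numbers were not treated as pairs. All 26 replicate pairs differed by more than sampling noise.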

Additional observations from a re-analysis of the deposited data

Results flagged for a closer look

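Each member was looked at for a library far from the rest of its construct at days 10 and 13, as was the pro-survival share, in 44 sets of 4 to 6 libraries. A set is marked where the gap between the extreme library and its neighbour takes more of the range than Dixon's 95% critical value, and chance marks about 1 in 20 sets. In all 5 values were marked, in 4 libraries. EF1a/sh-CTRL day 13 replicate 3 was high in BCL2, at 94.03 CPM where the other 5 libraries lay between 54.65 and 65.70, and low in BCL2L1, at 18.08 CPM where the others lay between 29.45 and 34.78. EF1a/sh-XIAP day 10 replicate 2 was high in BCL2L1, at 47.61 CPM against 28.96 to 32.26, and its total of 315055 UMIs was the second lowest of the series. SFFV/sh-CTRL day 10 replicate 1 was low in BAK1, at 20.26 CPM against 30.95 to 32.67. SFFV/sh-CTRL day 10 replicate 2 was low in BID, at 74.95 CPM against 99.05 to 101.1.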

How the results depend on the processing

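In all 9 comparisons 0 members were called, and this held in each of the 17 to 40 alternatives per comparison. With the replicate block the count was 0 of 10 members in every comparison, and the block changed no call of a member. Leaving out each library in turn gave 0 to 0 members. Over 2830 member values under alternatives, the lowest adjusted p was 0.385, for BAK1 from day 4 to day 10 with no low count filter. Of these values 200 had another sign than the main value, all of members past the threshold in neither fit, for which no direction is claimed. The pro-survival share moved beyond its pooled SD of 2.06 points once, when counts were thinned to the smallest total, where moderate KD differed by -1.96 points instead of 0.23. Leaving out each library moved it between -2.63 and 1.22 points in strong KD, between -0.31 and 0.97 in moderate KD and between -0.94 and 0.02 from day 4 to day 13. BNIP3 from day 4 to day 13 kept its call in 17 of 31 fits with a library left out, and TPT1 kept that of day 13 in 23 of 31 and that of day 10 in 31 of 31. At day 4, leaving out a sh-XIAP library leaves 1, which is assumed to vary like the other groups. The members counted lowest in a library were BCL2L1, BBC3, BAX and BAD, with as few as 3, 4, 5 and 5 UMIs.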
